A study of Mus musculus with 28 samples.

Results

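The RNAs described here are 181 mouse genes with lincRNA or antisense transcripts, out of 8530 such genes and 53392 genes in the quantified transcriptome. They were chosen by their measured level: the TPM of a gene (a level scaled for transcript length and library depth, summed over its transcripts) had to average at least 5 over the 8 endothelial or the 8 tubular libraries. The level itself is therefore a description and carries no test. Of the members, 94 had lincRNA transcripts (intergenic long noncoding RNAs) and 87 had antisense transcripts, which run against another gene, and 2 also had a protein coding transcript. Just outside the limit lay Gm14493, Gm17225 and Rab26os, with highest means of 4.92, 4.93 and 4.999 TPM. Just inside it lay Gm7932, 1810041H14Rik and Gm42846 at 5.11, 5.11 and 5.13 TPM.

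All mice were FVB males, and the injury was ischemic acute kidney injury (AKI). Each group was sampled from kidney endothelial cells, taken with CD31 microbeads, and from proximal tubular cells, taken by microdissection. Per-library values covered injury with a scrambled miRNA (3 libraries per cell type), with exosomes (3) and with a mimic of miR-486-5p (2), so all 16 libraries with their own values came from injured kidneys. Sham mice and untreated injury (3 samples each per cell type) enter only through the comparison tables that the authors deposited, and the labels call them a re-analysis of earlier samples. A treated group set against them therefore differs in series as well as in treatment, and the 2 cannot be told apart. The labels name 3 male mice per group in the RNA protocol but tie no library to a mouse, and they state no source or dose of the exosomes, no time after injury and no age.

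Long noncoding RNAs are transcripts with no long reading frame. Some act in the nucleus on chromatin or on nuclear bodies, some are hosts from whose introns small nucleolar RNAs (snoRNAs) are cut, and many have no known role. They are often restricted to a cell type, and antisense transcripts can share a promoter or exons with the gene that they face. In kidney tubules, ischemia lowers many genes of the differentiated cell and raises injury genes.

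Libraries held between 8.27 and 24.1 Mreads (megareads) of estimated counts in endothelial and between 8.58 and 25.3 Mreads in tubular samples. The 7 endothelial markers summed to 183 to 350.05 TPM in endothelial and 11.6 to 24.0 TPM in tubular libraries. The endothelial libraries also held RNA of other kidney cells: the thick ascending limb markers Umod and Slc12a1 summed to 3551 to 12235 TPM there and to 92.2 to 422 TPM in tubular libraries, and the 3 podocyte markers to 165 to 290.2 against 1.16 to 24.4 TPM. Macrophage, fibroblast and lymphocyte markers summed to 54.6 to 142, 6.57 to 13.9 and 1.3 to 3.03 TPM in endothelial libraries, and to 5.01 to 22.4, 0.0945 to 1.67 and 0 to 0.521 TPM in tubular ones. The 7 proximal tubule markers summed to 680.3 to 3563 TPM in tubular libraries. In endothelial libraries they summed to 145 to 1330.3 TPM, highest in exosome library 1 and next in scrambled library 1 (740.4 TPM). In bulk libraries of this kind, fewer cells of a type and less RNA per cell cannot be told apart.

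The most abundant members by TPM were mostly not the best supported ones. Among the 19 members of at least 100 TPM in a cell type, 8 had a mean effective length (the transcript length that Salmon leaves after allowing for fragment size) under 100 bases, and 13 shared 50% or more of their 31-base words with transcripts of other genes. Only 5 had neither feature: Malat1, Gas5, Gm15564, Gm19950 and 0610005C13Rik. Gm47551 had 255 TPM in endothelial and 452 TPM in tubular libraries from a mean of 62.9 reads at an effective length of 6 bases. Gm10076 shared 82.2% of its words with the ribosomal protein gene Rpl41, and Gm26825 shared 91.4% with Gm15459. Gm19950, in the gene of the tubular enzyme Acsm1 but on the other strand, had 316 TPM in tubular and 46.6 TPM in endothelial libraries. The library kit is not stated to keep the strand, so its reads cannot be told from reads of Acsm1 over the same bases. Over all members, 31 had an effective length under 100 bases and 17 a mean of under 20 reads.

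Bc1, a short RNA best known from neurons, where it acts on translation in dendrites, is the clearest case of thin support. It held 66, 68 and 155 reads in the endothelial scrambled libraries and 35, 19 and 141 in the tubular ones, and its effective length of 7 bases turned such counts into means of 779 and 277 TPM. Its transcript (chr7:144914470-144914637, plus strand, GRCm38, GENCODE M21) is printed because 95 of its 168 bases, in capitals, lie in words found in transcripts of other genes.
Bc1: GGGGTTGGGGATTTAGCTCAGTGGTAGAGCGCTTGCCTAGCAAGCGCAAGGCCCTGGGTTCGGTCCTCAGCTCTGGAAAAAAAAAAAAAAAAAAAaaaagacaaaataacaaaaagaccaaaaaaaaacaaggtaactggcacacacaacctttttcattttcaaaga
By contrast Malat1, a nuclear RNA of splicing speckles (chr19:5795690-5802672), had a mean of 13144 reads in endothelial libraries and 11716 in tubular ones. The highest member of all, AY036118 (chr17:39847113-39848035), lies with Gm42418 and Gm26917 in a stretch known to carry ribosomal RNA sequence. These 3 genes took 22.5 to 47.1% of all member reads in endothelial and 27.4 to 66.5% in tubular libraries. AY036118 stood at 4037, 3145 and 3541 TPM in tubular scrambled, 1257, 1615 and 1040.2 in exosome and 1549 and 5447 in mimic libraries, so the exosome libraries lay below all scrambled ones, and the 2 mimic libraries lay on either side of them.

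Sequence shared with other genes set much of what could be read from the antisense members. The library kit is not stated to keep the strand, so reads from an antisense RNA and from the gene it overlaps cannot be told apart. In all, 65 members shared 50% or more of their words with another gene, 46 of them mostly on the opposite strand, and 25 shared none. Partners were genes on the opposite strand that overlapped the member or began within 5000 bases of it, and 106 members had at least 1.

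Gm44588 (chr7:119462821-119472478), with 87.4% of its words opposite Umod, the gene of uromodulin in the thick ascending limb, had a mean of 435 TPM in endothelial and 9.42 TPM in tubular libraries. Umod itself had 7151 and 226 TPM, so both were higher in endothelial libraries. Gm11175, with 97.0% of its words opposite the AP-1 gene Jund, had 287 and 91.7 TPM beside 115 and 36.4 TPM for Jund.
Gm42413, opposite Qdpr (dihydropteridine reductase), went the other way, with 30.1 and 123 TPM beside 58.4 and 249 TPM for Qdpr. Gm17035, opposite the stress-response gene Ndrg1, had 29.9 and 83.7 TPM beside 327 and 867 TPM. In each of these 4 pairs member and partner were higher in the same cell type. Gm37401, opposite Rhoa, had 200.2 and 155 TPM while Rhoa had 140.5 and 141 TPM.

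Between the cell types, 105 members reached 5 TPM in both, 30 in endothelial libraries only and 46 in tubular libraries only. By mean CPM (reads scaled for library depth only), 19 members were at least 4 times higher in endothelial and 32 at least 4 times higher in tubular libraries, and 89 lay within 2 times. Tubular members included Gm4208 (chr1:62821355-62832370) at 7.99 against 0.257 CPM and BC024386 (chr7:140906014-140907983) at 33.2 against 1.93 CPM, and neither shared over 5% of its words with other genes. Endothelial members with little shared sequence included Eprn (chr13:73344665-73347384) at 68.1 against 3.24 CPM and Gm13111 (chr4:154637576-154644724) at 49.97 against 2.39 CPM. Gm13111 starts 703 bases from Prdm16, a transcriptional regulator that is read in the opposite direction and had 3.13 and 0.244 TPM. Since the endothelial libraries hold other kidney cells, a higher level there was not assigned to endothelium.

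**Figure D1:**
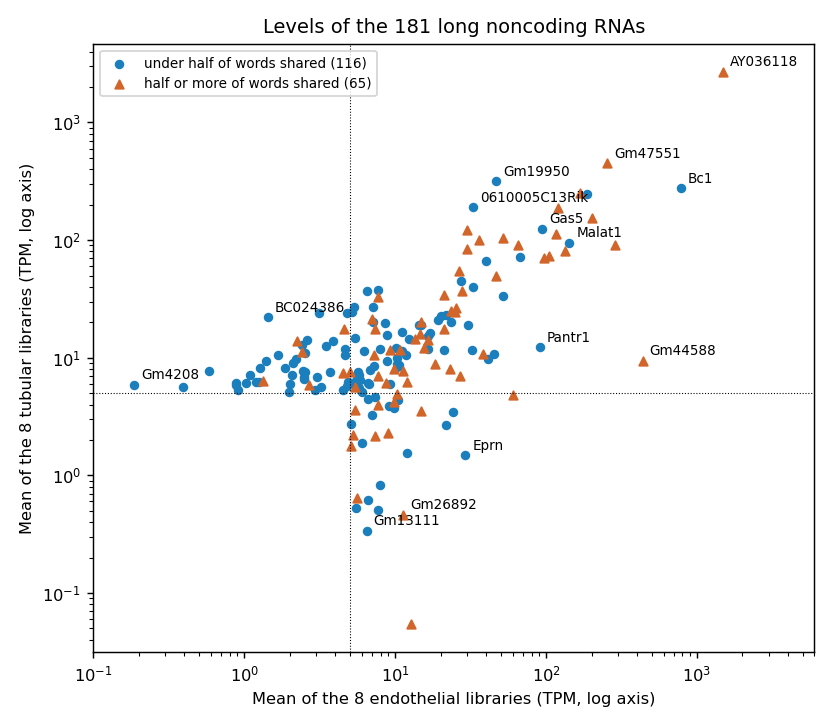
Mean level of each of the 181 RNAs over the 8 endothelial (x axis) and the 8 tubular libraries (y axis), in TPM on log axes, with dotted lines at the limit of 5 TPM. Triangles are the 65 RNAs that share 50% or more of their words with other genes, and they include most of the RNAs above 100 TPM.

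Untreated injury was compared with sham in samples that the choice of members did not use. In the authors' deposited tubular table, 24 members were higher and 36 lower in injury, out of 176 with an adjusted p, at adjusted p under 0.05. That is 13.6% and 20.5% of the members, and over all genes there 11.5% were called higher and 8.65% lower. The median log2 fold change was -0.09 for the members and 0.01 for all genes. In the authors' deposited endothelial table, 7 members were higher and 11 lower of 176, or 3.98% and 6.25%, where 3.3% of all genes were higher and 1.11% lower. The 14 members called in both tables made up 23.3% of the tubular and 77.8% of the endothelial calls. Of these, 7 were higher in both, 7 lower in both and none went in opposite directions. Over all genes, 417 were higher in both tables, beside 638 higher in the endothelial one. The number of all genes lower in both was not computed. All folds of these tables appear to be shrunken toward 0, and the authors' p-values are quoted as deposited.

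The members with the largest rise are known only by their gene model numbers, and all but the antisense Gm20400 are intergenic. Gm20186 (chr6:18845910-18848207) rose in the authors' deposited tubular table by a log2 fold change of 4.80 (SE 0.74, adjusted p = 5.03e-09) and in the authors' deposited endothelial table by 3.59 (SE 0.58, adjusted p = 3.52e-08). Gm26809 (chr6:18844220-18847360), on the other strand of the same locus, rose by 3.19 (SE 0.55, adjusted p = 9.64e-08) and 2.62 (SE 0.59, adjusted p = 7.45e-05) in the authors' deposited tables. Gm29408 (chr9:90938980-90939195) rose by 4.83 (SE 0.85, adjusted p = 1.72e-07) and 4.40 (SE 0.77, adjusted p = 4.72e-07) there, but from few reads, since its effective length was 12 bases and its mean 26.7 reads. Gm48942, Gm20400, Gm48275 and Gm43305 were the others higher in both of the authors' deposited tables, with tubular values of 3.50, 3.52, 2.47 and 1.89. Gm12840 (chr4:117700188-117700923) rose by 2.46 (SE 0.49, adjusted p = 3.37e-06) in the authors' deposited tubular table and has no adjusted p in the endothelial one.

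Several of these RNAs share sequence, so their values are not independent. Of the words of Gm20186, 79.0% are found opposite in Gm26809, and 600 bases run unbroken through both. Gm12840, on another chromosome, shares 59.8% of its words with Gm20186, and Gm29408 shares 51.6% with Gm26809. The stretches that join them are printed with 20 bases on either side, from GENCODE M21 transcripts, and capitals mark the longest run that is identical in both members of a pair, 134 bases in the first pair and 83 in the second.
Gm20186 (chromosome 6, transcript bases 218 to 391): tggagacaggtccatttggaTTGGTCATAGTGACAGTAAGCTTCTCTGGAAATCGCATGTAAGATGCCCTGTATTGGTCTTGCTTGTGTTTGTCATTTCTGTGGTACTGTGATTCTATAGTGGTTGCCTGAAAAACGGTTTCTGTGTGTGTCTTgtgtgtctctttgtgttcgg
Gm12840 (chromosome 4, transcript bases 196 to 369): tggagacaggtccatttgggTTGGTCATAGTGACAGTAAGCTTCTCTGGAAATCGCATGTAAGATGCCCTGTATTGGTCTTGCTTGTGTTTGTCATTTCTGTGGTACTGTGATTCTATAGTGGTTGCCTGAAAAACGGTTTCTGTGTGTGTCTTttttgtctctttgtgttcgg
Gm29408 (chromosome 9, transcript bases 52 to 174): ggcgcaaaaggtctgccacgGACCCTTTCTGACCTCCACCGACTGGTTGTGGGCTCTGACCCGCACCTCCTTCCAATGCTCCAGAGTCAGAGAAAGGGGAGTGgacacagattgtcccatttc
Gm26809 (chromosome 6, transcript bases 2514 to 2636): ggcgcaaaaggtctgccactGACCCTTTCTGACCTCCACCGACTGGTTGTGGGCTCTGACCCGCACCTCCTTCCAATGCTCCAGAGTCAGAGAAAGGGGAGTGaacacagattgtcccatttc
Gm48275 and Gm42428 are a further pair, with all 287 bases of Gm48275 in Gm42428. Gm48942 and Gm20400 shared 24.0% and 8.62% of their words with any other gene. Gm20400 lies antisense within the organic anion transporter gene Slco1a6, which was lower in tubular injury in the authors' deposited table, with a log2 fold change of -0.84 (SE 0.22, adjusted p = 0.000714).

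**Figure D2:**
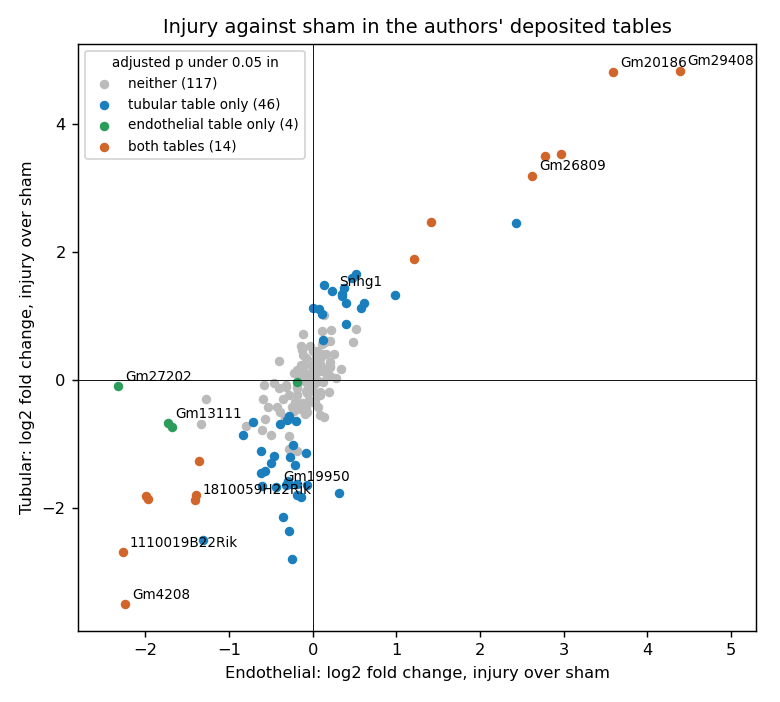
Log2 fold change of untreated injury over sham for the 181 RNAs in the authors' deposited endothelial (x axis) and tubular (y axis) tables, coloured by the table in which the adjusted p was under 0.05. The 7 RNAs higher in both tables reach the upper right corner, led by Gm29408 and Gm20186, and the RNAs lower in both include Gm4208.

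Members lower in injury included many tubular ones. Of the 36 lower in the authors' deposited tubular table, 17 were at least 4 times higher in tubular than in endothelial libraries by CPM, as were 32 of all 181 members and 0 of the 24 higher ones. 1810059H22Rik (chr5:148953748-148970122) fell there with a log2 fold change of -1.87 (SE 0.26, adjusted p = 1.47e-10), Gm4208 with -3.50 (SE 0.59, adjusted p = 4.98e-08) and BC049987 with -1.80 (SE 0.35, adjusted p = 2.55e-06). All 3 were also lower in the authors' deposited endothelial table, at -1.40, -2.24 and -1.39. In the endothelial libraries with their own values, however, Gm4208 had 18 reads in exosome library 1 and at most 4 in any other. BC049987 had 10 to 53 reads there. Exosome library 1 also held the highest endothelial sum of proximal tubule markers, 1330 TPM. What tubular RNA adds to these endothelial falls was not tested. Marker levels of the sham and untreated samples were not analysed here, so what a change in their cell makeup adds was not tested. Among falling members of the authors' deposited endothelial table the lowest adjusted p went to Gm13111, with -1.73 (SE 0.45, adjusted p = 0.000662), to Gm27202, which ends 359 bases from it on the other strand, with -2.32 (SE 0.69, adjusted p = 0.00236), and to 1110019B22Rik, with -2.27 (SE 0.68, adjusted p = 0.00253). Airn, the imprinted RNA that silences Igf2r, fell there too, with -1.68 (SE 0.59, adjusted p = 0.0091). Its level was low in the endothelial libraries with their own values, at 9 to 34 reads. The means were 1.08 TPM there and 7.17 TPM in tubular libraries.

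The 7 RNAs higher in both injury tables were highest under scrambled miRNA in endothelial cells, where for each of them all 3 scrambled libraries lay above all exosome and mimic libraries. The same held for 62.6% of the 417 genes of any kind that were higher in both injury tables, and for 13.6% of all genes tested. In tubular cells, scrambled libraries 2 and 3 lay above all others for 5 of them, not for Gm43305 and Gm48275. Gm20186 had 44.9, 30.7 and 29.8 TPM in the 3 endothelial scrambled libraries, 8.82, 12 and 5.27 TPM with exosomes and 5.83 and 8.37 TPM with the mimic. In tubular libraries it had 2.56, 20.4 and 33.9 TPM under scrambled miRNA, 1.78, 1.61 and 3.91 TPM with exosomes and 2.99 and 3.94 TPM with the mimic. All endothelial scrambled libraries lay above the exosome and mimic libraries, which overlapped each other, while tubular scrambled library 1 lay with the exosome and mimic libraries. Gm26809 had 105, 80.8 and 87.1 TPM under scrambled miRNA in endothelial and 24.3, 69.9 and 81.9 TPM in tubular libraries, beside 18.4, 14.8 and 16.5 TPM with exosomes in the latter.
Gm48942 and Gm20400, which share little sequence with them, had the same low tubular scrambled library 1, at 9.33 and 3.18 TPM, with at least 39.3 and 21.6 TPM in libraries 2 and 3. That library also held the highest sum of proximal tubule markers of all, 3563 TPM, against 1807 and 680.3 TPM in scrambled libraries 2 and 3, and its part in these results was not tested. Havcr1, the tubular injury marker KIM-1, had 5.64 TPM in that library and 169.9 and 376 TPM in tubular scrambled libraries 2 and 3, with 2.19 to 2.8 TPM under exosomes and 1.41 to 1.87 TPM under the mimic. In endothelial libraries Havcr1 had 33.5 to 259.9 TPM under scrambled miRNA and at most 22.4 TPM under exosomes. The log2 fold change of exosomes over scrambled miRNA for Gm20186 was -2.98 (SE 0.82, adjusted p = 0.0667) in tubular and -1.54 (SE 0.32, adjusted p = 0.186) in endothelial libraries, by edgeR's quasi-likelihood test with Benjamini-Hochberg adjustment. The mimic gave -2.67 (SE 0.92, adjusted p = 0.21) and -2.10 (SE 0.37, adjusted p = 0.0545) for it by the same edgeR test. None of these calls passed the threshold.

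**Figure D3:**
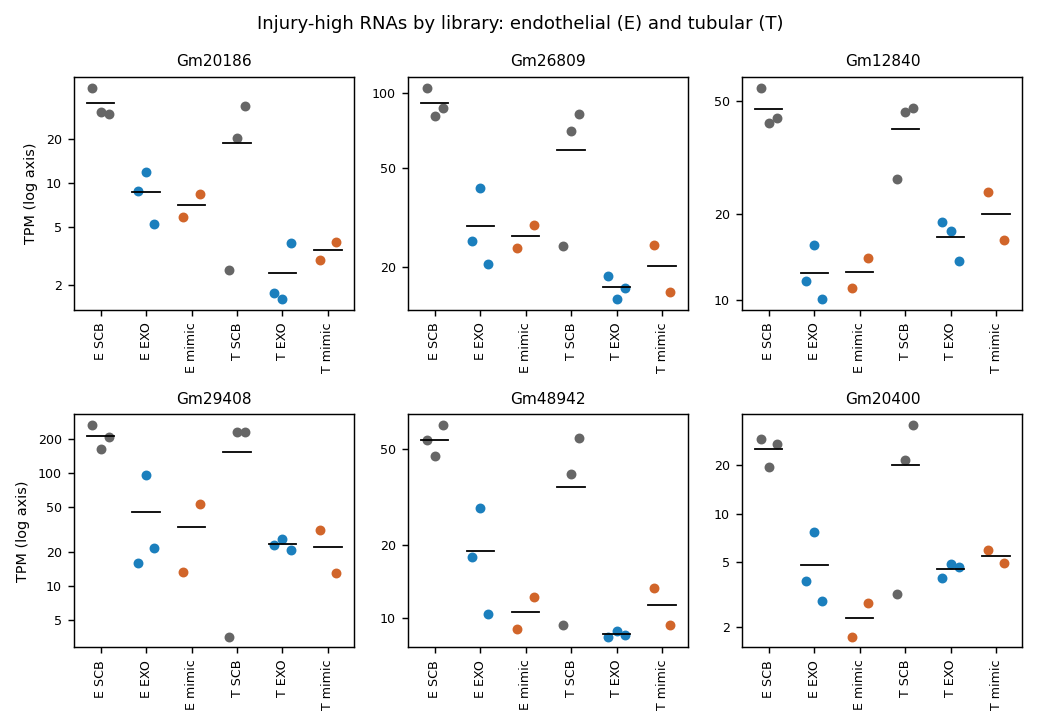
TPM of 6 RNAs in every endothelial (E) and tubular (T) library on log axes, for scrambled miRNA (SCB, grey), exosomes (EXO, blue) and mimic (orange), with bars at group means. In all 6 panels the endothelial scrambled libraries lie above the other endothelial libraries, and in the tubular libraries scrambled library 1, the leftmost grey point, lies below the other 2.

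In tubular cells, 14 members were higher with exosomes than with scrambled miRNA and 0 were lower, among the 168 members that passed the count filter (edgeR, adjusted p under 0.05). This was 8.33% of them, where 5.13% of all 14913 genes tested were called, 2.72% higher and 2.41% lower. The median log2 fold change was 0.31 over the 168 and -0.02 over all genes. This count rests on every exosome library: without any 1 of the 3 it was 0. A transcript length offset also brought it to 0, and edgeR on the compared libraries alone to 6. Leaving out scrambled library 2 brought it to 4, and DESeq2 called 40 (29 higher, 11 lower). The share of all genes called was not computed for any of the alternative fits. Without scrambled library 1, edgeR called 21 members, 11 higher and 10 lower. Lower calls thus appeared both without that library and in DESeq2, and the reason was not tested.

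BC024386, an intergenic RNA, had the lowest p. It stood at 12.2, 9.43 and 4.2 TPM with scrambled miRNA, 25.5, 36.2 and 26.9 TPM with exosomes and 29.1 and 32.9 TPM with the mimic, and every exosome library lay above every scrambled one. Its edgeR log2 fold change was 2.19 (SE 0.32, adjusted p = 0.0234). Gm15638 (chr16:45945606-45971370), an antisense RNA across Phldb2, had 8.73, 8.31 and 4.99 TPM with scrambled miRNA and 13.2, 16.3 and 11.6 TPM with exosomes, a log2 fold change of 1.26 (SE 0.19, adjusted p = 0.0243) by edgeR. Phldb2 itself gave -0.22 (SE 0.17, adjusted p = 0.461) by edgeR, and it shares no exon bases with Gm15638. 1810059H22Rik had 12.9, 8.83 and 7.4 and 15.9, 15.6 and 14.3 TPM in those groups, which again did not overlap, with 0.83 (SE 0.14, adjusted p = 0.0257) by edgeR.

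2500002B13Rik (chr8:57488054-57508877) starts 194 bases from Sap30, a subunit of the Sin3 deacetylase complex that is read the other way. It had 10.4, 10.9 and 11.7 TPM with scrambled miRNA and 19.5, 18.9 and 14.5 TPM with exosomes, or 0.89 (SE 0.20, adjusted p = 0.044) on the log2 scale by edgeR. Sap30 was called in the same direction, at 1.04 (SE 0.15, adjusted p = 0.0226) by edgeR. Both were lower in injury in the authors' deposited tubular table, at -2.13 for the RNA and -1.37 (SE 0.17, adjusted p = 3.12e-13) for Sap30. Snhg12, a snoRNA host (chr4:132308623-132311024), had 18.7, 18.7 and 12.8 TPM with scrambled miRNA, 26.8, 24.1 and 24.2 TPM with exosomes and 16.9 and 15.8 TPM with the mimic, with 0.82 (SE 0.19, adjusted p = 0.0465) for exosomes by edgeR. The mimic libraries lay within the scrambled range for it.

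The other 9 called members were Gm17275 (1.18 on the log2 scale), Gm4285 (0.97), Gm10804 (0.66), Gm42556 (1.75), 0610031O16Rik (1.66), Gm12927 (1.79), AI314278, Gm4208 (2.42) and 0610005C13Rik (0.74). AI314278 had 22.7, 16.1 and 5.06 TPM with scrambled miRNA and 35.9, 34.5 and 28.8 TPM with exosomes. Adjusted p over the 14 ran from 0.0234 to 0.0489 in edgeR. Of the protein coding genes opposite or beside these 9, none was called by edgeR: H3f3a, a histone H3.3 gene across exons of Gm17275, gave 0.73 (SE 0.20, adjusted p = 0.0618), and Tpt1, which starts 129 bases from Gm4285, gave 0.46 (SE 0.23, adjusted p = 0.259). Cldn19, a claudin gene across exons of Gm12927, gave 0.21 (SE 0.37, adjusted p = 0.767), Adh7, an alcohol dehydrogenase gene across exons of 0610031O16Rik, gave 1.41 (SE 0.73, adjusted p = 0.268), and Bcat2, a branched-chain aminotransferase gene across exons of 0610005C13Rik, gave 0.37 (SE 0.20, adjusted p = 0.298). Cd82 and Fry, around Gm10804 and Gm42556, had an adjusted p of 0.99 and 0.388 in edgeR. Of the 14, 12 had all exosome libraries above all scrambled libraries in TPM, and Gm10804 and 0610005C13Rik did not. Of all 406 genes called higher by edgeR, 72.4% were apart in this way, which is the background for these 12. None of the 14 shared over 25.8% of its words with other genes. In 10 of the 14, scrambled library 3 was the lowest tubular library, and that library had the lowest proximal tubule marker sum, 680.3 TPM. The marker sum was 1830 to 2380 TPM in exosome libraries, between the scrambled extremes, and its part in the calls was not tested.
Of the 14, 9 were among the 36 members lower in untreated injury in the authors' deposited tubular table, which is 64.3% of the 14 and 25% of the 36. Of all 406 genes called higher by edgeR, 37.2% were lower in that deposited table of the authors. Snhg12 was the 1 that was higher there, at 0.63. The 2 comparisons share no library.

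**Figure D4:**
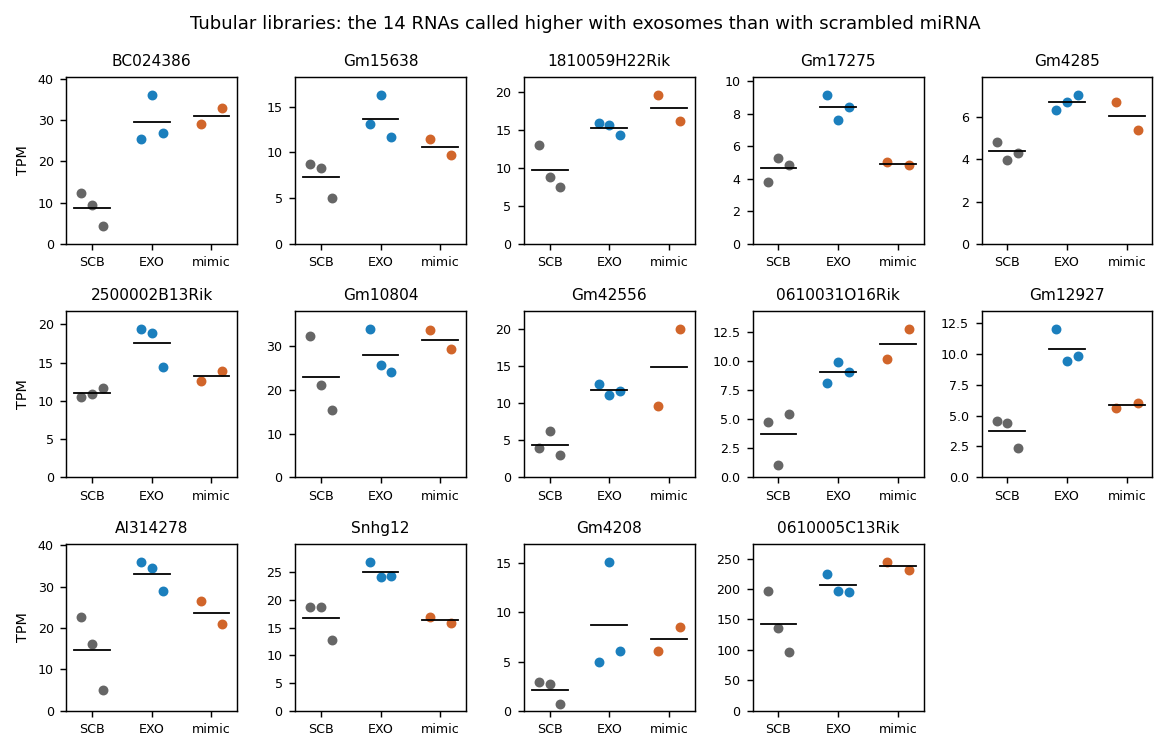
TPM in each tubular library, from 0, for the 14 RNAs called higher with exosomes (EXO, blue) than with scrambled miRNA (SCB, grey), with the mimic (orange) beside them and bars at group means. Exosome points lie above all scrambled points in 12 of 14 panels, and the mimic points lie near the scrambled ones for Gm17275, Gm12927 and Snhg12.

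The mimic gave no call among members in tubular cells. Against scrambled miRNA 0 of 168 members passed edgeR's threshold, where 0.0201% of all genes did, while 43 had an unadjusted p under 0.05 (16.3% of all genes had) and DESeq2 called 11. Without scrambled library 1 edgeR called 10 (3 higher, 7 lower), and without scrambled library 3 it called 1. The lowest edgeR p went again to BC024386, with 2.08 (SE 0.34, adjusted p = 0.101), and then to 1810059H22Rik, Gm42556 and 0610031O16Rik, at 0.80, 1.94 and 1.74 on the log2 scale. These groups share the scrambled libraries with the exosome comparison. Against exosomes 0 of 168 passed in edgeR, as did 0% of all genes, with 30 at an unadjusted p under 0.05 (17.9% of members and 12.4% of all genes), 3 by DESeq2 and 4 by edgeR on the compared libraries alone. AC135964.2 had 46.7, 44.6 and 45.6 TPM with exosomes and 23.7 and 19.6 TPM with the mimic, groups that did not overlap, at -1.28 (SE 0.27, adjusted p = 0.311) by edgeR. Gm12744, Hoxb5os and Snhg18 followed at 1.27, -1.52 and -0.56. AC135964.2 was named for its low p there, so groups set apart come with the choice. For DESeq2 and for edgeR on fewer libraries, the share of all genes called was not computed.

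In endothelial libraries no member passed either. For exosomes against scrambled miRNA edgeR called 0 of 171 members and 0% of all genes, with 32 members at an unadjusted p under 0.05 (18.7% of members and 11.4% of all genes), 10 called by DESeq2 and 5 by edgeR without exosome library 2. For the mimic against scrambled miRNA edgeR called 0 of 171 and 0% of all genes, with 49 members at an unadjusted p under 0.05 (28.7% of members and 19.5% of all genes), 31 called by DESeq2 and 27 by edgeR on the compared libraries alone. For the mimic against exosomes edgeR called 0 of 171 and 0% of all genes, with 23 members at an unadjusted p under 0.05 (13.5% of members and 4.05% of all genes) and 0 called by DESeq2. The counts by DESeq2 and by edgeR on fewer libraries have no background, since the share of all genes called was not computed for them.

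Gm47708 (chr10:95730183-95739356) had the lowest p for the mimic. It had 1.36, 6.59 and 2.45 TPM with scrambled miRNA, 28.5, 10.4 and 32.5 TPM with exosomes and 40.9 and 50.3 TPM with the mimic, 3 groups that did not overlap. The edgeR log2 fold change of the mimic was 3.91 (SE 0.58, adjusted p = 0.0545) and that of exosomes 3.19 (SE 0.55, adjusted p = 0.184). Pantr1 (chr1:42590782-42694842), whose start lies 926 bases from Pou3f3, a transcription factor of the distal nephron, had 15.3, 16.2 and 18.1 TPM, then 122, 40.2 and 116 TPM and 178 and 218 TPM in the same groups. These 3 groups did not overlap either, and the mimic gave 2.70 (SE 0.44, adjusted p = 0.0545) by edgeR. Gm47708 and Pantr1 were named for their low p in these comparisons, so groups set apart come with the choice. The share of all genes apart in this way was not computed. In tubular libraries Pantr1 had 3.97 to 22.8 TPM, with all groups overlapping.
Gm13111, which fell in endothelial injury, had 1.58, 3.58 and 1.94 TPM with scrambled miRNA and 12.7 and 12.6 TPM with the mimic, or 2.60 (SE 0.44, adjusted p = 0.0545) by edgeR. 1110019B22Rik had 0.388, 2.5 and 1.45 and 14.8 and 17.1 TPM in those groups, or 3.58 (SE 0.66, adjusted p = 0.0545) by edgeR. On the other side Gm20400 had 29.2, 19.5 and 27.1 TPM with scrambled miRNA and 1.73 and 2.79 TPM with the mimic, or -3.29 (SE 0.52, adjusted p = 0.0545) by edgeR, and Gm12840 gave -1.72. Markers of other nephron cells moved with these groups. The thick ascending limb markers summed to 10959 to 12235 TPM in the mimic and 3551 to 7998 TPM in the scrambled endothelial libraries, and the 3 distal and collecting duct markers to 416 to 434 against 108 to 157 TPM, and their part in these values was not tested.
Gm33051, among the 4 members of lowest p for exosomes, had 0, 0 and 0 reads in the scrambled and 23, 19 and 31 reads in the exosome libraries at an effective length of 32 bases, so no fold is given. For the mimic against exosomes the lowest p went to Gm12744, Gm44785, Gm15895 and Gm27216, at -2.01, -3.37, -1.56 and -2.57 on the log2 scale, with an adjusted p of 0.988 for each.

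**Figure D5:**
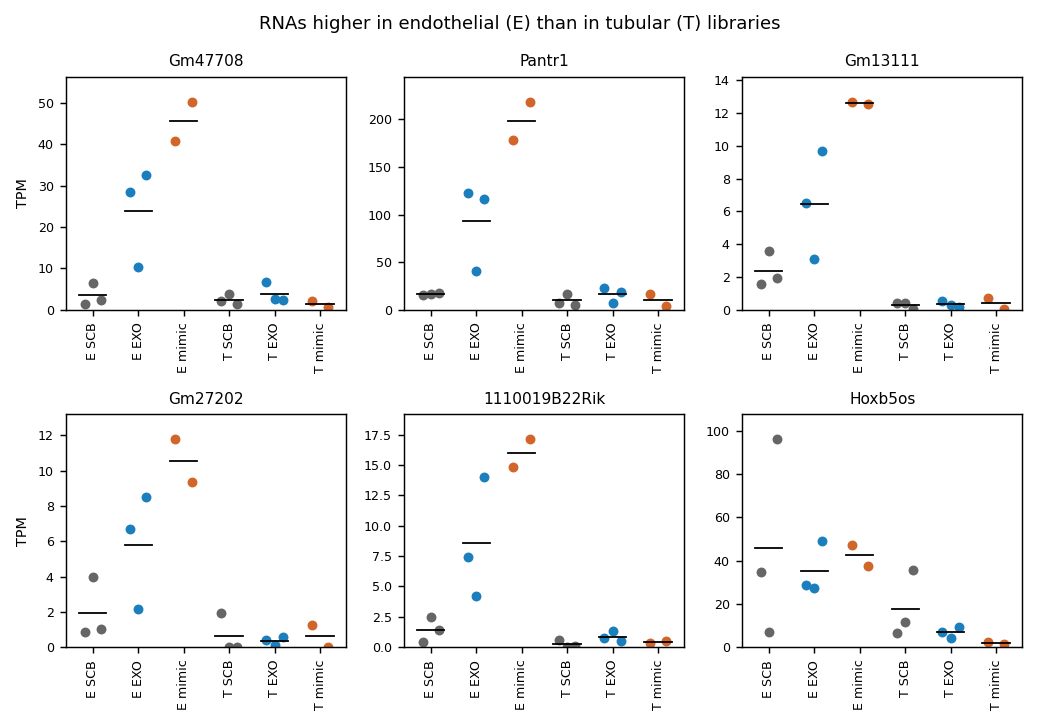
TPM of 6 RNAs in every endothelial (E) and tubular (T) library, from 0, with bars at group means for scrambled miRNA (SCB, grey), exosomes (EXO, blue) and mimic (orange). In 5 panels both endothelial mimic libraries lie above all 3 scrambled ones, while the Hoxb5os groups overlap in TPM. The share of all genes in this order was not computed.

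Whether a treatment differed between the cell types was tested with an interaction term over all 16 libraries. The labels give 7 library numbers to both an endothelial and a tubular library without stating whether they mark the same mouse, and the fit treated the libraries as independent. No member passed for exosomes, where edgeR called 0 of 176 members and 0% of all genes, with 13 members at an unadjusted p under 0.05 (7.39% of members and 7.78% of all genes), 1 called by DESeq2 and 1 by edgeR without endothelial exosome library 1. None passed for the mimic, where edgeR called 0 of 176 and 0% of all genes, with 39 members at an unadjusted p under 0.05 (22.2% of members and 15.5% of all genes), 10 called by DESeq2 and 2 by edgeR without tubular mimic library 1. Here too the share of all genes called by DESeq2 or on fewer libraries was not computed. Hoxb5os (chr11:96291024-96306910), antisense to Hoxb5, came closest, at -2.98 (SE 0.53, adjusted p = 0.0674) by edgeR for tubular minus endothelial. It had 7, 5.44 and 10.9 CPM in endothelial scrambled and 23 and 24.7 CPM in endothelial mimic libraries, and 5.01, 4.48 and 3.72 CPM and 1.9 and 1.26 CPM in the tubular ones. In CPM both pairs of groups were apart, in opposite directions, but Hoxb5os was named for its low p here. In TPM, which also weighs its isoforms' lengths, the endothelial scrambled libraries stood at 34.7, 7.06 and 96 and overlapped the mimic libraries at 47.4 and 37.4. Gm47708, Gm12744 and Gm27216 followed at -4.70, 2.74 and 3.13. For exosomes the lowest p went to Gm26892, Gm26716, B130046B21Rik and Gm15895. The first 2 are opposite Mfsd4a and Sdc3 over more than 92% of their words and had 0 TPM in every tubular exosome library, so no fold is given, and the other 2 stood at 3.53 and 1.57.

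Few of the well known RNAs passed a test. Of 20 listed snoRNA hosts, which carry snoRNAs in their introns, 9 were members. Of the 8 with a value, 3 were higher in injury and 0 lower in the authors' deposited tubular table, where 11.5% of all genes were higher and 8.65% lower: Snhg1 at 1.39 (SE 0.46, adjusted p = 0.00362), Snhg6 at 1.21 (SE 0.47, adjusted p = 0.0105) and Snhg12 at 0.63 (SE 0.26, adjusted p = 0.0318). Their median there was 0.61 beside 0.01 for all genes. With exosomes against scrambled miRNA in tubular libraries 1 of 8 was called by edgeR, with a median of 0.63 beside -0.02 for all genes. There were 0 of 8 called in the authors' deposited endothelial table, with a median of 0.12. Gas5, the most abundant host, had 100.1, 101 and 213 TPM with scrambled miRNA and 142, 111 and 138 TPM with exosomes in tubular libraries, with overlap, and Snhg9 had at most 5 reads in any library. Of the 8 listed proteins of the snoRNA particle, 2 were higher in tubular injury in the authors' deposited table (11.5% of all genes were), Nop58 at 0.74 (SE 0.29, adjusted p = 0.0218) and Gar1 at 0.92 (SE 0.38, adjusted p = 0.0205), and Nop58 was higher in the endothelial one too.

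Of 11 listed nuclear body and chromatin RNAs, 4 were members. Airn was the 1 that passed in injury, in the authors' deposited endothelial table, and it had a mean of 1.08 TPM in endothelial libraries. Malat1 had 153, 269 and 253 TPM in endothelial scrambled and 72.8 and 81.9 TPM in mimic libraries, with -1.19 (SE 0.41, adjusted p = 0.165) by edgeR, and those 2 groups did not overlap in TPM. Neat1, the scaffold of paraspeckles, had 8.39, 15.9 and 11.5 and 22.4 and 26.2 TPM in the same groups, with 1.07 (SE 0.34, adjusted p = 0.141) by edgeR, so the 2 RNAs stood in opposite order. The short isoform of Neat1, of 3004 bases, held 14.8 of its 16.6 TPM in endothelial and 14.1 of 15.2 TPM in tubular libraries. Tug1 stood at 7.41, 7.33 and 3.84 TPM in tubular scrambled and 4.76, 4.37 and 3.96 TPM in exosome libraries, with overlap. Its reads there were 590, 388 and 280 under scrambled miRNA and 526, 402 and 397 with exosomes. On these counts edgeR gave 0.06 (SE 0.15, adjusted p = 0.855), so no fall is read from the TPM. Of 8 listed genes of nonsense-mediated decay, 0 passed in tubular injury in the authors' deposited table.
Of 9 imprinted RNAs 2 were members, Airn and Snhg14, and Snhg14 had 0.63 (SE 0.32, adjusted p = 0.252) for exosomes in tubular libraries by edgeR. Dleu2, host of miR-15a and miR-16-1, was the 1 member among 13 miRNA hosts, and of 13 listed stress and p53 RNAs Neat1, Gas5 and Tug1 were members, with 0 of 3 called in either injury table of the authors' deposited set. Of 14 listed RNAs opposite or beside genes of developmental factors, 5 were members. They were the antisense Hoxb5os, Hoxd3os1 and Hnf1aos1 and the lincRNAs Lhx1os and Pantr1. None passed in the 2 injury tables or in edgeR's treatment comparisons. For the mimic against scrambled miRNA in endothelial libraries, edgeR gave Pantr1 2.70, Lhx1os 1.66, Hoxb5os 1.65, Hoxd3os1 0.52 and Hnf1aos1 -0.12. Their median was 1.65 beside 0.01 for all genes tested. Thick ascending limb and distal markers were also higher in those mimic libraries, as given above, and their part was not tested.

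In TPM, members differed widely between libraries in a few cases. Among members above 0 TPM in every library of the cell type, the TPM ratio of the highest to the lowest library was largest for B130046B21Rik in both cell types. It was 193 in endothelial and 331 in tubular libraries, on a mean of 23.4 reads. The reads of B130046B21Rik ran only from 11 to 52 in endothelial and from 1 to 42 in tubular libraries. TPM also weighs transcript length, and its part in these ratios was not tested. Gm44785, Gm15655 and 1110019B22Rik followed in endothelial libraries, at ratios of 64, 62.2 and 44. 1600020E01Rik, Gm29408 and Gm29012 followed in tubular ones, at 93.7, 65.6 and 40.8.

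The authors' deposited tables also set treated groups against sham and untreated injury, across the 2 series. In tubular cells, 24 of 172 members were called for exosomes against sham (14.0%, with 11.2% of all genes), 20 of them higher, and 1 of 178 for the mimic against sham (1.03% of all genes). Untreated injury differed from exosomes in 82 of 179 members (30.9% of all genes), from the mimic in 69 of 178 (22.9%) and from scrambled miRNA in 50 of 176 (17.8%). In endothelial cells, 17 of 175 members were called for exosomes against sham (6.73% of all genes) and 42 of 175 for the mimic against sham (11.6%), 38 of them lower. Untreated injury differed there from exosomes in 18 of 175 (3.77% of all genes), from the mimic in 39 of 176 (10.2%) and from scrambled miRNA in 3 of 176 (0.757%). These comparisons share samples, so their values are given side by side. For Gm20186 in the authors' deposited tubular tables, untreated injury exceeded exosomes by 5.22 (adjusted p = 2.53e-11), the mimic by 4.43 (adjusted p = 7.74e-07) and scrambled miRNA by 1.96 (adjusted p = 0.00996), while exosomes against sham gave -0.07 (adjusted p = 0.788). In the authors' deposited endothelial tables the same RNA gave 2.21, 2.75 and 0.17 in that order, the last with an adjusted p of 0.416.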

How the data were processed

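RNA of endothelial and proximal tubular cells was sequenced as poly(A) libraries on a NextSeq 500, per the labels' protocols. The tools named in the submitters' processing notes are Salmon 0.13.1 and DESeq2, and the build is GRCm38. The authors deposited, for 16 libraries, estimated counts and TPM per transcript, with effective lengths in bases. The authors deposited 12 comparison tables of 25412 genes, with a mean signal over samples, log2 fold changes and p-values, which are quoted as they are. The members and gene lists were chosen with earlier results of these data known, and the rule leaves out 1 gene by name.

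Estimated counts were summed by gene, rounded and tested in edgeR 4.0.16 (R 4.3.3; TMM, quasi-likelihood, filterByExpr with a minimum count of 10 and total of 15) with all 8 libraries of a cell type, Benjamini-Hochberg adjustment over all genes and a threshold of 0.05. The fit was tested on simulated data. Log2 fold changes name the first group over the second. SE is the log2 fold change divided by the root of the F value. p-values measure the spread between these samples, which may be technical. Word sharing compared 31-base words with GENCODE M21 transcripts on either strand, and all 181 members were found there. The genes named are the 10 highest per cell type, the called members (at most 12, and 4 where fewer passed), the 8 lowest p in each deposited injury table, members of the lists, the 4 most variable per cell type, those next to the limit and their partners. Others were named after their values were seen. Seed words of miR-486-5p were not searched, and a few genes that the rule or lists name are not reported here. Alternatives were DESeq2 1.42.0, upper quartile scaling, no filter, the compared groups alone, a length offset, a replicate block and leaving out each library.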

Additional observations from a re-analysis of the deposited data

How the results depend on the processing

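The count of 14 members called in tubular cells for exosomes against scrambled miRNA was 14 with upper quartile scaling, 40 with DESeq2 (all 14 among them), 51 with no filter, 6 with only the groups compared, 0 with the length offset and 0 to 21 when each library was left out. The limits to members of at least 100 bases effective length or with under 50% of words shared, both added after seeing the data, left it at 14. With the replicate block it was 7 (6 of them among the 14), and in endothelial cells the replicate block gave 21 for the mimic against scrambled miRNA in place of 0. The correlation of deviations between libraries of the same title replicate number passed 0.1 in 2 of 7 pairs in either cell type. It ran from 0.005 to 0.340 in endothelial and from -0.069 to 0.287 in tubular libraries. With 2 or 3 libraries per group, these values cannot show whether the numbers pair the libraries. Library numbers shared by both cell types gave correlations of -0.156 to 0.142, and a block on them left both interaction counts at 0. The other counts were 0 in the main setting. With DESeq2 they became 11 (tubular mimic against scrambled), 3 (tubular mimic against exosomes), 10 and 31 (endothelial exosomes and mimic against scrambled), and 1 and 10 (interactions for exosomes and mimic). With no filter they became 33, 9, 30 and 45, 18 for the endothelial mimic against exosomes, and 7 and 31 for the interactions. With only the groups compared they became 4 for the tubular mimic against exosomes and 27 for the endothelial mimic against scrambled. Leaving out each library gave 0 to 10 for the tubular mimic against scrambled, 0 to 5 for endothelial exosomes against scrambled, and 0 to 1 and 0 to 2 for the interactions, where the 10 came without tubular scrambled library 1. For the other 3 comparisons it gave 0 throughout. The cause of these moves was not tested. The share of all genes called under each alternative was not computed, so these counts have no background beside them. None of the named folds changed direction: of 517 values under alternatives, 363 stayed on their side of the threshold, 97 lost the call and 57 gained it. Values without an adjusted p were left out of this count. These members were named for a low p and the fits share most libraries, so a kept direction was likely beforehand. In the authors' deposited injury tables, the limit to members with under 50% of words shared left 14 of the 24 higher tubular and 4 of the 7 higher endothelial calls. The members numbered 338 at a minimum of 2 TPM, 111 at 10 TPM, and 179 to 185 without each library in turn. The number of reads limits members of short effective length most, and intervals for them were not computed.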
